A study of Mus musculus with 12 samples.

Results

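The EGF receptor family and its ligands were followed in 4T1 mouse mammary carcinoma cells after loss of Cop1, with and without interferon gamma (IFNγ). The 10 genes were taken by symbol from the deposited count table of 22298 gene rows. They comprise 3 receptor genes (Egfr, Erbb2 and Erbb3) and 7 ligand genes (Hbegf, Tgfa, Areg, Btc, Epgn, Ereg and Nrg1). A filter on low counts kept 9 of them among 11904 genes tested. Ereg, which encodes epiregulin, had 0 counts in every library, which allows up to 0.0557 to 0.0729 CPM (counts scaled to the size of the library) at a floor of 3 counts over each group.

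The receptors of this family are tyrosine kinases that pair at the cell surface when a ligand binds. EGFR binds TGFα, amphiregulin (Areg), HB-EGF (Hbegf), betacellulin (Btc), epiregulin and epigen (Epgn), whereas neuregulins (Nrg1) bind ErbB3 and ErbB4. ErbB2 has no known soluble ligand and serves as a partner, and ErbB3 has a weak kinase and signals through such a partner to PI3K. The ligands are made as membrane proteins that ADAM metalloproteases cut free, and the receptors drive the RAS-ERK and PI3K-AKT pathways in mammary epithelium and in carcinomas arising from it. The product of Cop1 is a ubiquitin ligase known for marking transcription factors such as c-Jun and ETS proteins for breakdown.

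The 4T1 line was established from a mammary tumour of a BALB/c mouse. Cells carried Cop1 sgRNA1, Cop1 sgRNA2 or a guide to the control locus Rosa26. Each of these 3 populations was given IFNγ at 20 ng/ml for 24 hours or vehicle, which made 6 groups of 2 libraries. Populations with Cop1 sgRNA1 or sgRNA2 are called Cop1-loss cells when their log2 means are averaged. The design asks how Cop1 loss changes transcription with and without IFNγ. The labels do not say whether cells were cloned after editing, nor whether the libraries of a group came from separate cultures, and the p-values below therefore reflect nothing beyond library-to-library spread, possibly technical.

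Cop1 itself was lower with both guides. It stood at 60.7 and 60.2 CPM in sgRNA1 and 32.3 and 33.6 CPM in sgRNA2 libraries with IFNγ, against 80.4 and 83.3 CPM in Rosa26 libraries with IFNγ. In vehicle the values were 59.1 and 63.1 CPM with sgRNA1 and 34.5 and 34.7 CPM with sgRNA2, against 89.7 and 98.2 CPM with the Rosa26 guide. The log2 change with IFNγ was -0.44 ± 0.06 for sgRNA1 and -1.31 ± 0.06 for sgRNA2, and in vehicle -0.62 ± 0.05 and -1.44 ± 0.06 (SE, edgeR adjusted p at most 2.35e-08). Transcript left after editing does not measure functional protein. Totals ran from 19378070 to 32609717 counts per library. Of 12 epithelial markers, 11 were tested and Krt5 had 0 counts. The leukocyte markers Cd3e, Cd3g, Cd4, Cd8a, Ms4a1, Ncr1 and Adgre1 had 0 counts, and the pan-leukocyte gene Ptprc had 15 counts over all libraries.

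On mouse chromosome 5 (GRCm38, the assembly also named mm10, GENCODE M21 annotation) 4 of the ligand genes lie side by side, in the order Epgn, Ereg, Areg and Btc. The cluster spans chr5:91027464-91402994, or 375.5 kb, with 0 other annotated protein-coding genes in its gaps of 39.4, 46.0 and 208.8 kb. Btc is on the minus strand and the other three are on the plus strand.

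RefSeq promoter sequences (GRCm38.p6) were found for 6 of the 10 genes (Areg, Btc, Egfr, Epgn, Erbb2 and Tgfa), and the 250 bases before the transcription start were searched on both strands. The motifs were AP-1 (TGAGTCA), the cyclic AMP response element CRE (TGACGTCA), ETS (CCGGAAGT), the STAT site GAS (TTCNNNGAA) and C/EBP (TTGCNNAA), which do not contain one another. Promoters of the 3 ligand genes whose transcripts fell with IFNγ in Cop1-loss cells are shown 5′ to 3′ on the strand of the gene, and capitals mark the only match, a CRE in Areg that lies 61 to 54 bases before the start.
Areg promoter, chr5:91139349-91139598, plus strand: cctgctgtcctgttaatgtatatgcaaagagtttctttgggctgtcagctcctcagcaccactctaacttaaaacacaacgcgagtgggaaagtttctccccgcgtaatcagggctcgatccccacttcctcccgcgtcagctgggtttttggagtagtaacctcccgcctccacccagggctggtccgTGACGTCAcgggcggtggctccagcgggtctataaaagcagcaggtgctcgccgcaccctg
Btc promoter, chr5:91402995-91403244, minus strand: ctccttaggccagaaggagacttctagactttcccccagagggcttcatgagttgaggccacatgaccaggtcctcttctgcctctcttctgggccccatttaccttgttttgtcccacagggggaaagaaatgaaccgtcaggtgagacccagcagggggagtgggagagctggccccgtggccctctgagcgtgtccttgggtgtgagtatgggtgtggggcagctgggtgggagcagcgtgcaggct
Tgfa promoter, chr6:86194972-86195221, plus strand: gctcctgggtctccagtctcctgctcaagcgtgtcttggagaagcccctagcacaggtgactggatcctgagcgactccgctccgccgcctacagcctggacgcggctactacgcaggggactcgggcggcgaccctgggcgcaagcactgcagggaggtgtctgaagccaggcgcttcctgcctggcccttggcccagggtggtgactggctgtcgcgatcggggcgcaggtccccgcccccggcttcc
Over 32851 mouse promoters of the same length, the CRE was present in 1.55%, AP-1 in 4.46%, ETS in 2.88%, GAS in 7.02% and C/EBP in 9.56%. These matches describe letters in a window and say nothing of factor binding.

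The other genes lie apart from the cluster. Hbegf lies at chr18:36504927-36515805 and Tgfa at chr6:86195223-86275719. Nrg1 occupies chr8:31814551-32884029. Among the receptors, Egfr (chr11:16752203-16918158) and Erbb2 (chr11:98412470-98437716) share a chromosome, and Erbb3 is at chr10:128567523-128589652.

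Transcript levels differed far more between genes than between groups. On a per-length scale, mean CPM per kb of annotated exon, Hbegf led the ligands in vehicle with 58.7 in sgRNA1, 49.3 in sgRNA2 and 31.3 in Rosa26 cells. Areg came next with 36.3, 35.0 and 26.0 CPM per kb in the same order of groups, and Tgfa followed with 19.3, 16.7 and 12.3 CPM per kb. Btc and Nrg1, low among the ligands, stood at 1.26 to 2.03 CPM per kb in those groups and Epgn at 0.293 to 0.375. Among the receptors in vehicle, Erbb2 stood at 13.0 CPM per kb in sgRNA1 and 11.3 in Rosa26 cells, with sgRNA2 cells between them. Erbb3 stood at 2.98, 3.71 and 5.26 CPM per kb and Egfr at 0.176, 0.196 and 0.346 in sgRNA1, sgRNA2 and Rosa26 cells. This order of the receptors held in all 6 groups. The order of Nrg1 and Btc depended on the length used: with the length of the principal transcript, Nrg1 stood at 6.76 and Btc at 3.06 CPM per kb in Rosa26 vehicle cells.

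**Figure D1:**
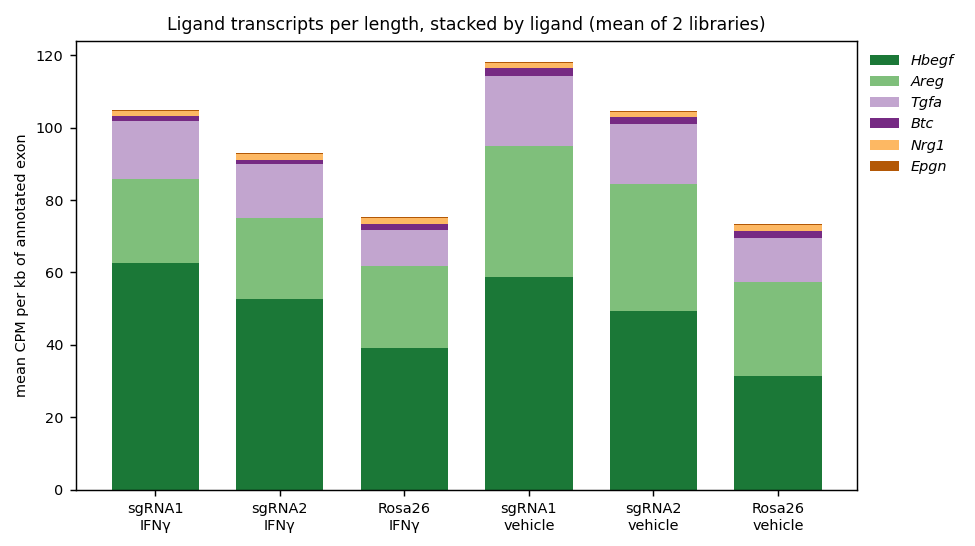
Stacked mean CPM per kb of annotated exon (vertical axis) of the 6 detected ligand genes in each of the 6 groups (horizontal axis, mean of 2 libraries each). Hbegf, Areg and Tgfa make up most of each bar, and the Hbegf segment is 58.7 in sgRNA1 vehicle cells, against 31.3 in Rosa26 vehicle cells.

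Hbegf had the widest range among the ligands in its share of their summed level. It made up 59.8% in sgRNA1, 56.8% in sgRNA2 and 51.9% in Rosa26 cells with IFNγ, and 49.7%, 47.1% and 42.6% in vehicle in the same order. Areg made up 22.2%, 23.8% and 30.3% with IFNγ, and 30.8%, 33.5% and 35.4% in vehicle. Tgfa kept a narrower range, from 13.1% in Rosa26 cells with IFNγ to 16.7% in Rosa26 vehicle cells. These shares are of transcript per length, not of protein, and carry no test. With principal-transcript lengths Hbegf held a higher share in each group, from 54.3% in Rosa26 vehicle cells to 70.2% in sgRNA1 cells with IFNγ. The Areg share was then lower in each group, from 12.8% in sgRNA1 cells with IFNγ to 22.1% in Rosa26 vehicle cells.

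**Figure D2:**
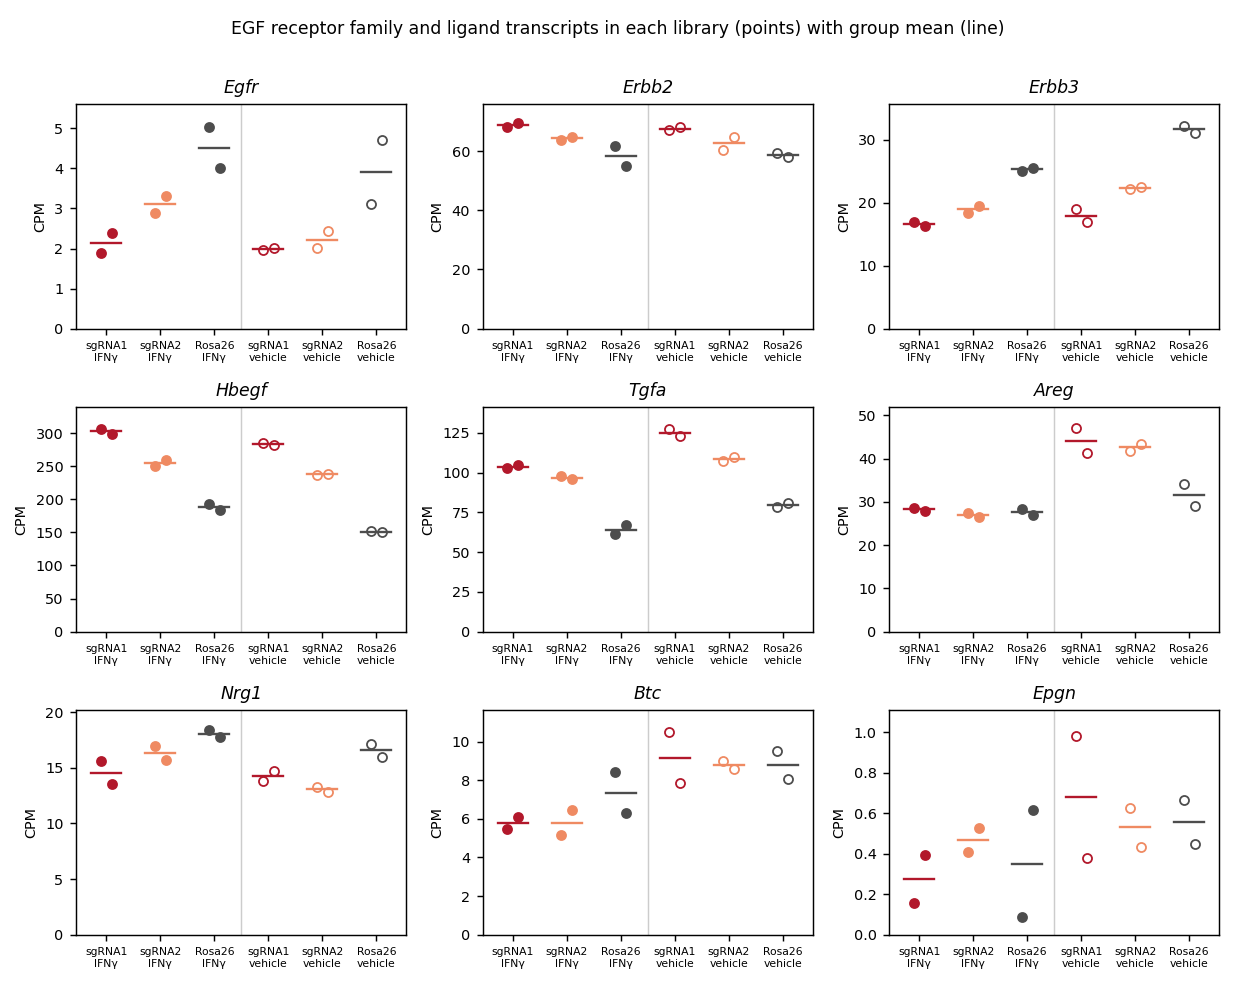
CPM on TMM-scaled library sizes (vertical axis, from 0) for 9 genes in each library (points) with the mean of the group (line), IFNγ groups (filled) left of vehicle groups (open) and Cop1 guides left of Rosa26 in each. Hbegf and Tgfa are higher and Erbb3 is lower in both Cop1-guide populations than in Rosa26 cells under either treatment, whereas Areg differs between populations in vehicle and lies between 26.5 and 28.6 CPM in all 6 IFNγ libraries.

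In vehicle, Cop1-loss cells had higher transcripts of the EGFR ligands Hbegf, Tgfa and Areg and of the partner receptor Erbb2, and by lower transcripts of Egfr, Erbb3 and the ErbB3 ligand Nrg1. Thus 4 of the 9 tested genes rose and 3 fell (edgeR quasi-likelihood test, with p adjusted by Benjamini-Hochberg over all genes and a threshold of 0.05). Of all genes tested, 35.8% were called in this comparison, 16.6% higher and 19.2% lower, so a call by itself was common. The median log2 change was 0.14 over the 9 genes and -0.01 over all genes tested. In RNA from a whole culture, a change in the number of cells making a transcript and a change in transcript per cell cannot be told apart.

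The gene of HB-EGF, a heparin-binding ligand, had the largest change of the 6 ligand genes tested in vehicle. Hbegf had 285 and 282 CPM in sgRNA1 and 237 and 239 CPM in sgRNA2 libraries, against 152 and 150.2 CPM in Rosa26 libraries with vehicle. All 4 Cop1-guide libraries lay above both Rosa26 libraries, and the guides did not overlap each other. The log2 change was 0.78 ± 0.03 (SE), a fold of 1.72, with an adjusted p of 1.68e-23 in edgeR. Tgfa, which encodes TGFα, had 127 and 123 CPM in sgRNA1 and 107 and 110.0 CPM in sgRNA2 libraries, against 78.2 and 81.1 CPM in Rosa26 libraries. Again no library of either guide overlapped the Rosa26 libraries. Tgfa rose 1.46-fold (log2 0.55 ± 0.04, edgeR adjusted p = 4.06e-14).

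Areg encodes amphiregulin, a ligand known for its role in mammary duct growth. It had 47.0 and 41.3 CPM in sgRNA1 and 41.8 and 43.4 CPM in sgRNA2 libraries, against 34.1 and 29.1 CPM in Rosa26 libraries with vehicle. The Cop1-guide libraries were all higher than the Rosa26 libraries, and the guides overlapped each other. Its log2 change was 0.46 ± 0.07, a fold of 1.37 (edgeR adjusted p = 4.61e-07). Its cluster neighbours did not pass the test: Btc differed by 0.04 (95% interval -0.24 to 0.31) and Epgn, at 0.376 to 0.981 CPM in the 6 vehicle libraries, by 0.14 (-0.94 to 1.22). The interval for Epgn rests on 8 to 32 counts per library and holds changes of the size seen for Areg.

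Erbb3, the receptor that couples strongly to PI3K, had 18.9 and 16.9 CPM in sgRNA1 and 22.1 and 22.5 CPM in sgRNA2 libraries, against 32.2 and 31.1 CPM in Rosa26 libraries with vehicle. The groups did not overlap, and Erbb3 fell by 0.66 ± 0.07 on the log2 scale (edgeR adjusted p = 8.30e-10). Nrg1, whose product activates ErbB3, had 13.9 and 14.7 CPM in sgRNA1 and 13.3 and 12.8 CPM in sgRNA2 libraries, against 17.1 and 16.0 CPM in Rosa26 libraries. All Cop1-guide libraries were lower, by a log2 change of -0.28 ± 0.09 (edgeR adjusted p = 0.0141). Without Rosa26 vehicle replicate 1 the Nrg1 change was -0.23 and its adjusted p 0.159.

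Egfr was scarce in every group. Its libraries held 1.96 and 2.02 CPM with sgRNA1 and 2.02 and 2.43 CPM with sgRNA2, against 3.12 and 4.72 CPM with the Rosa26 guide in vehicle, from 42 to 106 counts each. No library overlapped, but the Rosa26 pair was widely spread. The log2 change was -0.89 ± 0.22 (edgeR adjusted p = 0.00118), and without Rosa26 vehicle replicate 2 it was -0.57 with an adjusted p of 0.147. Erbb2 had 67.1 and 68.1 CPM in sgRNA1 and 60.5 and 64.8 CPM in sgRNA2 libraries, against 59.4 and 57.9 CPM in Rosa26 libraries. The ranges were close without overlap. Its log2 change of 0.15 ± 0.05 (edgeR adjusted p = 0.0160) lost its call without Rosa26 vehicle replicate 1 (0.0554), Rosa26 vehicle replicate 2 (0.139) or sgRNA2 vehicle replicate 2 (0.0659).

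**Figure D3:**
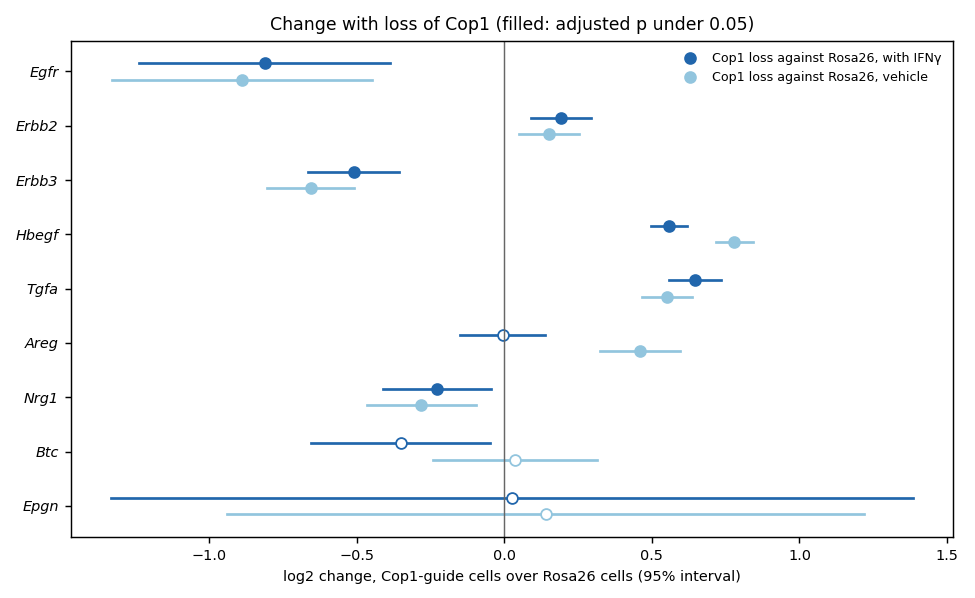
Log2 change of Cop1-guide cells over Rosa26 cells with its 95% interval (horizontal axis) for the 9 tested genes, with IFNγ (dark) above vehicle (light); filled points have an adjusted p under 0.05. Hbegf, Tgfa and Erbb2 lie right of 0 and Egfr, Erbb3 and Nrg1 left of 0 under both treatments, whereas Areg stands at -0.01 with IFNγ and 0.46 in vehicle.

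With IFNγ, Cop1-loss cells again had higher Hbegf, Tgfa and Erbb2 and lower Egfr, Erbb3 and Nrg1, while Areg did not pass the test. That is 3 genes higher and 3 lower of 9 tested, where 40.6% of all genes were called, 19.8% higher and 20.7% lower. The median log2 change was -0.01 over the 9 genes and -0.00 over all genes tested. These values come from other libraries than those of the vehicle comparison, although from the same 3 cell populations.

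Hbegf stood at 307 and 299 CPM in sgRNA1 and 251 and 259 CPM in sgRNA2 libraries, against 194 and 184 CPM in Rosa26 libraries with IFNγ. All Cop1-guide libraries were higher, by a log2 change of 0.56 ± 0.03 (edgeR adjusted p = 3.76e-19). Tgfa stood at 103 and 105 CPM in sgRNA1 and 97.6 and 95.7 CPM in sgRNA2 libraries, against 61.3 and 66.9 CPM in Rosa26 libraries with IFNγ, which was a log2 change of 0.64 ± 0.04 (edgeR adjusted p = 7.22e-16). The separation of Tgfa was as complete as in vehicle. Erbb3 had 16.9 and 16.3 CPM in sgRNA1 and 18.4 and 19.5 CPM in sgRNA2 libraries, against 25.1 and 25.4 CPM in Rosa26 libraries with IFNγ. It fell by 0.51 ± 0.08 (edgeR adjusted p = 5.65e-07), with no overlap.

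Areg gave 28.6 and 27.9 CPM in sgRNA1 and 27.4 and 26.5 CPM in sgRNA2 libraries, against 28.4 and 27.0 CPM in Rosa26 libraries with IFNγ. The groups overlapped fully and the log2 change was -0.01 (95% interval -0.15 to 0.14, edgeR adjusted p = 0.965). Btc had 5.49 and 6.09 CPM in sgRNA1 and 5.15 and 6.46 CPM in sgRNA2 libraries, against 8.45 and 6.28 CPM in Rosa26 libraries with IFNγ. A single Cop1-guide library lay above the lower Rosa26 library, and the log2 change of -0.35 ± 0.15 missed the threshold (edgeR adjusted p = 0.0581). Over the 18 alternatives it ran from -0.55 (adjusted p = 0.0187), without Rosa26 IFNγ replicate 2, to -0.12 (0.686), without Rosa26 IFNγ replicate 1. It was also called with library totals alone (0.0317), with no filter (0.0499), without sgRNA1 vehicle replicate 2 (0.0498) and without sgRNA2 IFNγ replicate 2 (0.0326).

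Egfr held 1.90 and 2.39 CPM in sgRNA1 and 2.89 and 3.31 CPM in sgRNA2 libraries, against 5.03 and 4.00 CPM in Rosa26 libraries with IFNγ. Cop1-guide libraries were all lower, with a log2 change of -0.81 ± 0.21 (edgeR adjusted p = 0.00174) that became -0.64 with an adjusted p of 0.0783 without Rosa26 IFNγ replicate 1. Erbb2 libraries stood at 63.9 to 69.5 CPM with Cop1 guides, against 55.0 to 61.7 CPM with the Rosa26 guide, a rise of 0.19 ± 0.05 (edgeR adjusted p = 0.00218). Without Rosa26 IFNγ replicate 2 this was 0.11 with an adjusted p of 0.179. Nrg1 was at 13.5 to 17.0 CPM with Cop1 guides, against 17.8 to 18.4 CPM with the Rosa26 guide. Its log2 change of -0.23 ± 0.09 (edgeR adjusted p = 0.0400) lost its call without either Rosa26 IFNγ library, without sgRNA1 IFNγ replicate 2 or without sgRNA2 IFNγ replicate 2, at adjusted p-values of 0.0999 to 0.206, in DESeq2 at 0.0862 and with no filter at 0.0547.

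Summed markers of other cells were low and differed between groups, and each sum rested mainly on a few genes. Leukocyte markers, 4 of 18 of which were tested, summed to 28.6 to 31.0 CPM in sgRNA1, 24.0 to 25.9 CPM in sgRNA2 and 39.2 to 40.9 CPM in Rosa26 libraries with IFNγ. In vehicle the leukocyte sums were 26.3 to 26.4 CPM, 23.5 to 25.3 CPM and 30.6 CPM in both Rosa26 libraries. Over all libraries Cd14 stood at 12.3 to 21.5 CPM, Cd68 at 6.25 to 12.3, S100a8 at 1.27 to 7.21 and Csf1r at 0.130 to 1.11 CPM. Ptprc stayed at or below 0.26 CPM. With Cop1 loss 2 of the 4 tested leukocyte markers were called lower under each treatment and 0 higher. These were Cd14 (log2 change -0.60 with IFNγ and -0.25 in vehicle) and Cd68 (-0.60 and -0.40). Fibroblast and endothelial markers, 3 of 10 tested, summed to 16.9 to 17.0 CPM in sgRNA1 and 18.3 to 18.7 CPM in Rosa26 libraries with IFNγ, with both sgRNA2 libraries at 18.1 CPM or above. In vehicle they summed to 21.8 to 24.5, 19.9 to 20.6 and 27.3 to 28.8 CPM in sgRNA1, sgRNA2 and Rosa26 libraries. Over all libraries Pdgfra alone stood at 15.2 to 23.3 CPM and Postn at 0.696 to 4.76 CPM. Dcn, Col3a1, Pdgfrb and Lum stayed at or below 0.25 CPM. Epithelial markers summed to 3990.2 to 4007 CPM in sgRNA1, 3913 to 3987 CPM in sgRNA2 and 3700.1 to 3704 CPM in Rosa26 libraries with IFNγ. In vehicle these sums were 4602 to 4635 CPM, 4588 to 4595 CPM and 4302 to 4429.5 CPM. The 11 tested epithelial markers went both ways, with 5 higher and 5 lower with Cop1 loss under IFNγ (median log2 change -0.15) and 4 higher and 4 lower in vehicle (-0.10). These counts stand beside the same shares of 40.6% and 35.8% over all genes. Krt18 and Krt8 were higher, by 0.45 and 0.29 with IFNγ and by 0.25 and 0.24 in vehicle, while Cdh1 (E-cadherin) fell by 0.29 and by 0.48. The part of these shifts in the changes of the EGF family was not tested.

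Summing the libraries of each population, which leaves the difference between the Cop1 guides as the spread, ended 3 calls under each treatment. Adjusted p-values then were 0.0693 for Egfr, 0.159 for Erbb2 and 0.246 for Nrg1 with IFNγ, and 0.0704, 0.285 and 0.185 in vehicle. Calls of Hbegf, Tgfa and Erbb3 under both treatments and of Areg in vehicle were kept.

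The guides moved Hbegf, Tgfa and Erbb3 the same way but not by the same amount. In vehicle 3 of the 9 genes differed between sgRNA2 and sgRNA1 cells, where 5.99% of all genes were called, 2.58% higher and 3.41% lower. Hbegf and Tgfa were lower in sgRNA2 than in sgRNA1 cells, with log2 differences of -0.25 ± 0.03 (edgeR adjusted p = 8.18e-07) and -0.21 ± 0.05 (0.00277), and Erbb3 was higher by 0.31 ± 0.09 (0.0288). The Tgfa difference missed the threshold without sgRNA1 vehicle replicate 1 (0.0847), and that of Erbb3 without sgRNA1 vehicle replicate 2 (0.260) or either sgRNA2 vehicle library (0.0968 and 0.123) and in DESeq2 (0.0660). With IFNγ the difference in Hbegf was -0.25 ± 0.03 (edgeR adjusted p = 9.15e-07), and Hbegf was the 1 gene of the 9 called where 9.41% of all genes were, 5.07% higher and 4.33% lower. Cop1 itself was lower in sgRNA2 than in sgRNA1 cells, with differences of -0.82 ± 0.06 in vehicle and -0.88 ± 0.06 with IFNγ. A link between the Cop1 transcript left and the level of Hbegf was not tested.

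Taken guide by guide against the same Rosa26 libraries, Hbegf in vehicle rose by 0.91 ± 0.03 with sgRNA1 (edgeR adjusted p = 5.84e-24) and 0.65 ± 0.03 with sgRNA2 (1.04e-18). Areg rose by 0.49 ± 0.08 and 0.43 ± 0.08 (adjusted p = 1.58e-06 and 2.84e-05), and sgRNA2 minus sgRNA1 was -0.06 (95% interval -0.21 to 0.09). In vehicle 6 of 9 genes were called with each guide, where 33.4% of all genes were called with sgRNA1 and 29.2% with sgRNA2. These were not the same genes. Erbb2 was not called with sgRNA2 (0.10, edgeR adjusted p = 0.224), nor was Nrg1 with sgRNA1 (-0.22, 0.106). Neither passed the direct test of sgRNA2 against sgRNA1 in vehicle (edgeR adjusted p = 0.319 and 0.610). Some single-guide calls leaned on single libraries. Without Rosa26 vehicle replicate 2 the Egfr change went from -0.97 to -0.65 with sgRNA1 and from -0.81 to -0.48 with sgRNA2. Under IFNγ, without sgRNA1 replicate 2 the Nrg1 change with sgRNA1 went from -0.31 to -0.21. Without Rosa26 IFNγ replicate 2 the Erbb2 change with sgRNA1 went from 0.24 to 0.16. With IFNγ 6 genes were called with sgRNA1 and 3 with sgRNA2, where 38.2% and 32.9% of all genes were. The genes called with sgRNA1 but not with sgRNA2 under IFNγ were Egfr (-0.55 with sgRNA2, adjusted p = 0.0843), Erbb2 (0.14, 0.0594) and Nrg1 (-0.15, 0.308), and none of these passed the direct test of sgRNA2 against sgRNA1 (adjusted p = 0.238, 0.332 and 0.395).

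IFNγ moved the 3 main EGFR ligands in different directions. In Cop1-loss cells it was followed by higher Hbegf and lower Areg, Tgfa, Btc and Erbb3, which is 1 higher and 4 lower of 9 genes, where 34.2% of all genes were called, 18.1% higher and 16.1% lower. In Rosa26 cells Hbegf rose and Tgfa and Erbb3 fell, which is 1 higher and 2 lower, where 32.8% of all genes were called, 16.6% higher and 16.2% lower. The median log2 change over the 9 genes was -0.18 in Cop1-loss cells and -0.19 in Rosa26 cells, against -0.01 over all genes tested in both.

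The responses of Areg and Hbegf differed between Cop1-loss and Rosa26 cells. Areg had 26.5 to 28.6 CPM with IFNγ, against 41.3 to 47.0 CPM with vehicle in Cop1-loss libraries, and in Rosa26 libraries 27.0 and 28.4 CPM, against 29.1 and 34.1 CPM. IFNγ libraries were lower without overlap in both cell types, by a wide gap in Cop1-loss cells and a narrow one in Rosa26 cells. The log2 response was -0.66 ± 0.06 in Cop1-loss cells (edgeR adjusted p = 2.43e-13) and -0.19 ± 0.08 in Rosa26 cells (0.0630), and the difference between responses was -0.46 ± 0.10 (0.00162). This difference was -0.36 with an adjusted p of 0.0603 without Rosa26 vehicle replicate 2, and the Rosa26 response without that library was -0.30 with an adjusted p of 0.0137. Without Rosa26 vehicle replicate 1 the Rosa26 response was -0.072 (0.645), and with library totals alone it was called at 0.0441.

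Hbegf had 251 to 307 CPM with IFNγ, against 237 to 285 CPM with vehicle in Cop1-loss libraries, and in Rosa26 libraries 184 and 194 CPM, against 150.2 and 152 CPM. Cop1-loss ranges overlapped because the guides stood apart, while within each guide both IFNγ libraries were above both vehicle libraries. The log2 response was 0.10 ± 0.02 in Cop1-loss cells (edgeR adjusted p = 0.000921) and 0.32 ± 0.04 in Rosa26 cells (5.90e-10), a difference of -0.22 ± 0.04 (0.000449). Areg and Hbegf were the 2 of 9 genes with a called difference in response, both with a more negative or smaller response in Cop1-loss cells, where 5.74% of all genes were called, 3.38% higher and 2.36% lower. The median difference was 0.04 over the 9 genes and 0.01 over all genes. The fit on summed libraries, given next, had no term for the guide. The difference between guides that both treatments share therefore counted as spread, although it cancels within a guide. When the libraries of each population were summed, the adjusted p was 0.637 for Areg and 0.998 for Hbegf, and 0 of all genes were called in edgeR (546 at an unadjusted p under 0.05).

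**Figure D4:**
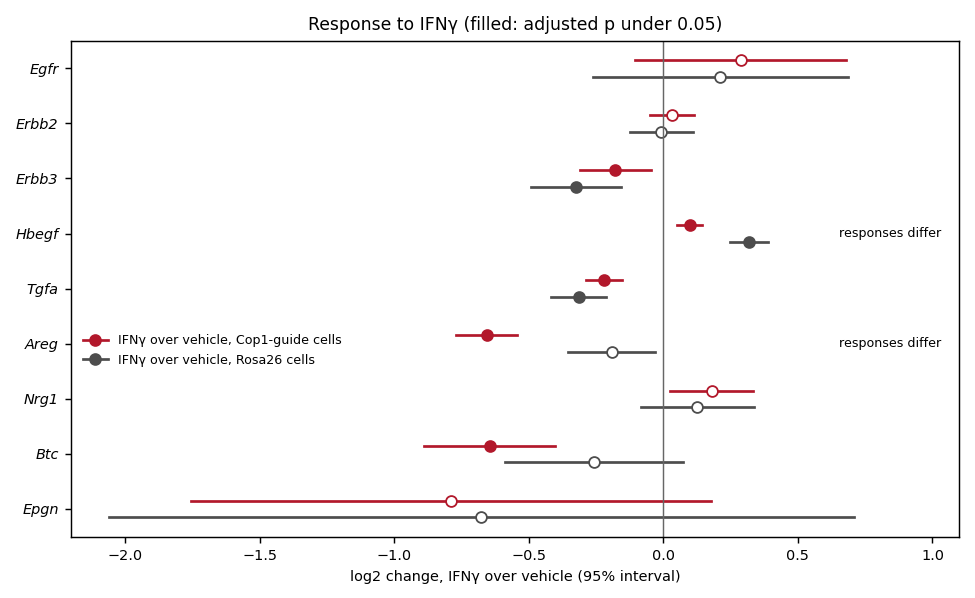
Log2 change of IFNγ over vehicle with its 95% interval (horizontal axis) for the 9 tested genes, in Cop1-guide cells (red) above Rosa26 cells (grey); filled points have an adjusted p under 0.05 and the words "responses differ" mark a called difference. Areg stands at -0.66 in Cop1-guide cells and -0.19 in Rosa26 cells, and Hbegf at 0.10 and 0.32.

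Tgfa fell with IFNγ in both cell types, by 0.22 ± 0.03 in Cop1-loss cells (edgeR adjusted p = 6.96e-07) and 0.31 ± 0.05 in Rosa26 cells (2.70e-06). Its responses differed by 0.09 (95% interval -0.03 to 0.22, adjusted p = 0.434). Btc fell in Cop1-loss cells, where its 4 IFNγ libraries had 5.15 to 6.46 CPM, against 7.85 to 10.5 CPM with vehicle. That change was -0.65 ± 0.12 (edgeR adjusted p = 2.79e-05), and in Rosa26 cells Btc changed by -0.26 (95% interval -0.59 to 0.07, 0.240). The difference between the Btc responses was -0.39 (95% interval -0.80 to 0.03) and did not pass the test (0.311).

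Epgn had 0.158 to 0.525 CPM with IFNγ, against 0.376 to 0.981 CPM with vehicle in Cop1-loss libraries, too few counts to show a change of this size (log2 -0.79, 95% interval -1.76 to 0.18). Among the receptors, Erbb3 fell by 0.18 ± 0.06 in Cop1-loss cells (edgeR adjusted p = 0.0287) and 0.33 ± 0.08 in Rosa26 cells (0.00199). The call in Cop1-loss cells was lost without any 1 of 4 Cop1-guide libraries, sgRNA1 vehicle replicate 1 (0.185), sgRNA2 vehicle replicate 2 (0.0671), sgRNA1 IFNγ replicate 2 (0.0839) or sgRNA2 IFNγ replicate 1 (0.112), and in DESeq2 (0.0600). Erbb2 responses were 0.03 (95% interval -0.05 to 0.11) in Cop1-loss cells and -0.01 (-0.12 to 0.11) in Rosa26 cells. Egfr stood at 0.29 (-0.11 to 0.68) and 0.21 (-0.26 to 0.68), and Nrg1 at 0.18 (0.02 to 0.33) and 0.13 (-0.08 to 0.34), in the same order, none past the threshold after adjustment. Without sgRNA1 IFNγ replicate 2 the Nrg1 response in Cop1-loss cells was 0.23 with an adjusted p of 0.0349. With summed libraries, adjusted p-values for IFNγ in Cop1-loss cells were 0.646 for Hbegf, 0.0952 for Tgfa and 0.358 for Erbb3, and in Rosa26 cells 0.285, 0.117 and 0.247. That fit had no term for the guide, so the difference between guides again counted as spread. The summed epithelial markers given above were lower with IFNγ than with vehicle in all 3 populations. Of the 11 tested markers, 3 were higher and 7 lower in Cop1-loss cells and 2 higher and 7 lower in Rosa26 cells. Over all genes tested, 34.2% and 32.8% were called in these comparisons. Leukocyte sums were 39.2 to 40.9 CPM with IFNγ, against 30.6 CPM with vehicle in Rosa26 cells. With sgRNA1 they were 28.6 to 31.0 CPM with IFNγ, against 26.3 to 26.4 CPM with vehicle. With sgRNA2 the treatments overlapped, at 24.0 to 25.9 CPM with IFNγ, against 23.5 to 25.3 CPM with vehicle. The S100a8 rise was 2.13 ± 0.25 for the Rosa26 guide, against 1.61 ± 0.18 for Cop1 loss, while Csf1r fell under both. Neither Cd14 (0.17 for Rosa26, -0.18 for Cop1 loss) nor Cd68 (0.32 and 0.13) was called. Fibroblast and endothelial sums were 18.3 to 18.7 CPM with IFNγ, against 27.3 to 28.8 CPM with vehicle in Rosa26 cells, and were also lower with IFNγ in both Cop1-guide populations. The part of these markers in the responses of the EGF family was not tested.

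Other genes of the pathway were counted by role. Of the remaining family genes, Erbb4, which encodes the other neuregulin receptor, and Nrg3 had 0 counts, and Egf, Nrg2 and Nrg4, at 0.136 to 5.95 CPM, were not called in any of the 5 averaged comparisons. Of 11 sheddase genes and their regulators, 10 were tested and Timp3, an ADAM inhibitor, was removed by the filter with 8 counts in all. With Cop1 loss, 2 of them were higher and 2 lower under IFNγ, and 3 higher and 2 lower in vehicle, where 40.6% and 35.8% of all genes were called. Adam12, a metalloprotease that can shed HB-EGF, fell by 1.25 ± 0.08 with IFNγ and by 1.22 ± 0.07 in vehicle, whereas Adam19 rose by 0.51 ± 0.06 and 0.40 ± 0.06. Adam9 fell by 0.14 ± 0.03 and by 0.16 ± 0.03. IFNγ was followed by higher Adam8, by 1.17 ± 0.06 in Cop1-loss cells and 1.55 ± 0.09 in Rosa26 cells, and by higher Rhbdf2, which encodes a partner of ADAM17, by 0.25 ± 0.04 and 0.38 ± 0.06. The main ligand sheddases Adam17 and Adam10 were within 0.09 of 0 on the log2 scale in all 5 comparisons, and the 1 call among these was a fall of Adam10 by 0.08 ± 0.03 with IFNγ in Cop1-loss cells (edgeR adjusted p = 0.0175).

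Of 16 genes that restrain or recycle the receptors, 3 were higher and 6 lower with Cop1 loss under IFNγ, and 4 higher and 3 lower in vehicle, with medians of -0.02 and -0.05. The shares called over all genes were 40.6% under IFNγ and 35.8% in vehicle. Cblc, a Cbl family ubiquitin ligase, fell by 0.78 ± 0.07 with IFNγ and by 0.81 ± 0.07 in vehicle. Errfi1, a feedback inhibitor that binds the receptor kinase domain, fell by 0.17 ± 0.02 with IFNγ in Cop1-loss cells and rose by 0.18 ± 0.03 in Rosa26 cells. These responses differed by -0.35 ± 0.04 (edgeR adjusted p = 8.90e-09), the single call among the 16 genes in that comparison, where 5.74% of all genes were called. Like every call in that comparison, it was lost with the libraries of each population summed, in a fit with no term for the guide. With Cop1 loss the log2 change of Errfi1 was -0.32 ± 0.03 under IFNγ and 0.03 ± 0.03 in vehicle, the latter not called. Ptpn1, a tyrosine phosphatase that acts on EGFR, rose by 0.34 ± 0.04 with Cop1 loss under IFNγ and by 0.30 ± 0.04 in vehicle.

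The 14 adaptor genes had 5 higher and 4 lower with Cop1 loss under IFNγ and 5 higher and 3 lower in vehicle, where 40.6% and 35.8% of all genes were called. Grb7, an adaptor that binds ErbB2, rose by 0.44 ± 0.06 and 0.25 ± 0.06, and Ptpn11, which encodes the phosphatase SHP2, fell by 0.09 ± 0.03 and by 0.13 ± 0.03. The 14 genes of the RAS-RAF-MEK-ERK chain had 4 higher and 2 lower, and 2 higher and 3 lower, with medians of -0.00 and 0.01. The 14 genes of the PI3K-AKT arm had 3 higher and 3 lower with IFNγ, and 2 higher and 7 lower in vehicle, with medians of -0.05 and -0.11. Foxo3, a transcription factor that AKT holds in check, fell by 0.60 ± 0.06 and by 0.38 ± 0.06, and Pik3r2, a PI3K regulatory subunit, rose by 0.60 ± 0.05 and 0.20 ± 0.05. With IFNγ against vehicle these 3 groups of 14 genes had 2 to 4 higher and 2 to 3 lower in Cop1-loss cells, and 1 to 3 higher and 2 to 4 lower in Rosa26 cells, where 34.2% and 32.8% of all genes were called. Stat3, a transcription factor acting below receptor kinases and cytokine receptors, rose in both.

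Of 21 genes of ERK transcription output, 8 were higher and 8 lower with Cop1 loss under IFNγ, and 11 higher and 5 lower in vehicle, with medians of 0.07 and 0.21. Of all genes tested, 40.6% were called under IFNγ and 35.8% in vehicle. Plau, the urokinase protease gene, rose by 1.55 ± 0.03 and 1.79 ± 0.03, and Dusp6, an ERK phosphatase, by 0.57 ± 0.03 and 0.74 ± 0.03. The immediate early gene Egr1 fell by 1.51 ± 0.06 and by 0.36 ± 0.09. IFNγ was followed by 10 higher and 7 lower in Cop1-loss cells, and by 11 higher and 5 lower in Rosa26 cells, with medians of 0.02 and 0.27, where 34.2% and 32.8% of all genes were called. In the difference between these responses 0 of the 21 genes were called higher and 10 lower by edgeR, with a median of -0.19, where 3.38% of all genes were called higher and 2.36% lower, with a median of 0.01. None of these 10 calls was left when the libraries of each population were summed, since 0 of all genes were then called (546 at an unadjusted p under 0.05). That fit had no term for the guide, so the difference between guides counted as spread. Among the 10 called genes Ier3 stood at -0.55 ± 0.04, Egr1 at -1.16 ± 0.11 and Dusp5 at -0.67 ± 0.07. Several of these genes are also targets of other pathways, and the list does not measure ERK activity. The list was chosen with earlier results of these data known, so its share of calls is a description and not an independent test.

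**Figure D5:**
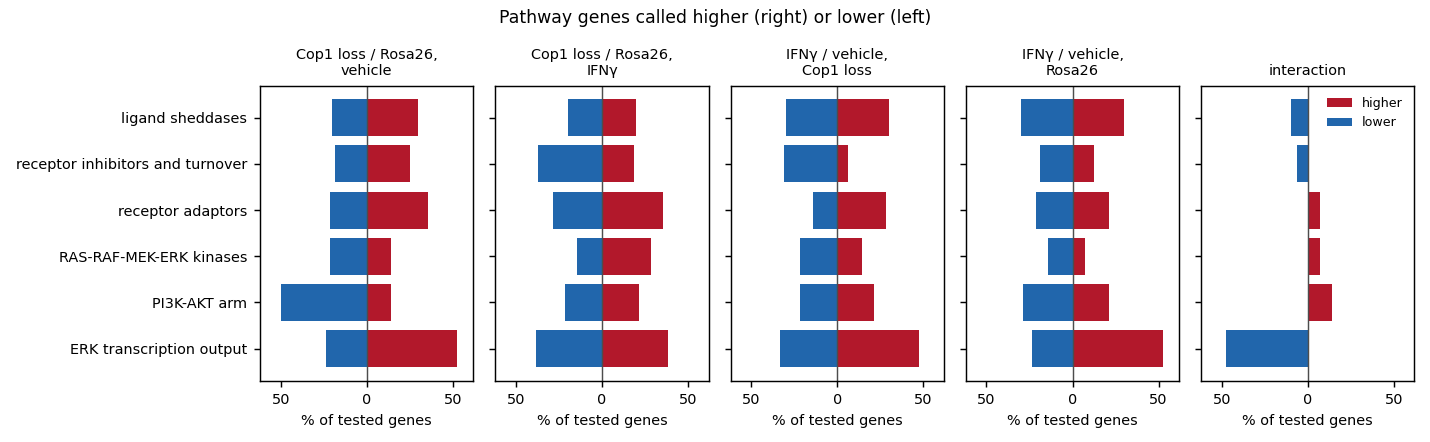
Share of tested genes in 6 pathway lists (rows) called higher (right, red) or lower (left, blue) in 5 comparisons (columns), in percent of the tested genes of the list. The ERK transcription output row has 10 of 21 genes called lower and none called higher in the difference between IFNγ responses. The lists were chosen with earlier results of these data known.

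The genes most like the members over the 12 libraries were sought by Pearson correlation of log2 CPM among genes averaging at least 3 on that scale. Hbegf was most like Plaur, the urokinase receptor gene (r = 0.988), then Ptges (0.987) and Sema7a (0.985). Tgfa was most like Tes (0.994), Plpp2 (0.990) and Ergic1 (0.988), and Areg like Fnta (0.972), Pxdc1 (0.953) and Tacc3 (0.939). Erbb3 was most like Zranb3 (0.978), Erbb2 like Orai1 (0.946) and Nrg1 like Ptpn11 (0.952). Between members, Hbegf and Erbb3 ran opposite (r = -0.976), Hbegf ran together with Erbb2 (0.876) and Tgfa (0.752), and Hbegf and Areg were only weakly related (0.204). Erbb2 with Erbb3 (-0.849) and Tgfa with Nrg1 (-0.826) also ran opposite. Egfr, Btc and Epgn averaged below that minimum. The 12 libraries form 6 groups, so each r mostly describes how group means line up, and it carries no test.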

How the data were processed

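RNA was sequenced from 12 libraries in 6 groups of 2. Per the labels' protocols, libraries were made from total RNA with an Illumina TruSeq kit. Per the submitters' processing notes, the build was mm10 and the tools were STAR 2.4.0, DESeq2 1.10 and HTSeq, whose version is not stated. The deposited values are the authors' whole-number counts per gene, not normalized, and columns of other samples numbered 0. How strand, annotation and shared reads were handled in counting is not given in the sources used here, so reads of overlapping or antisense genes cannot be told apart. The table's totals row entered neither library sizes nor tests.

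Library pairs differed by more than sampling noise in every group (chi-square per degree of freedom 2.33 to 4.21), and each library was used on its own. Tests were edgeR 4.0.16 (R 4.3.3) quasi-likelihood F tests with TMM scaling, filterByExpr (minimum count 10, minimum total 15, 11904 genes kept) and 1 mean per group over all libraries (6 residual degrees of freedom, median prior 34.5, coefficient of variation 3.21%). The threshold was 0.05 on p adjusted by Benjamini-Hochberg across all tested genes. With this small spread, small changes are called. Floors of 3 counts cover counting error only. The code was tested on simulated data.

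The members and gene lists were chosen with earlier results of these data known. Genes named are all members, Cop1, up to 3 called genes with the smallest p of each list, list genes at 0 or removed by the filter, and the 3 genes most like each member averaging at least 3 on the log2 CPM scale. Adam10 and Adam17 were named for their role after their values were seen. Alternatives were median-ratio factors, library totals, DESeq2 1.42.0, no filter, a replicate block, leaving out each library, and summing the libraries of a population.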

Additional observations from a re-analysis of the deposited data

Results flagged for a closer look

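The response to IFNγ differed between Cop1-loss and Rosa26 cells for 2 of the 9 tested genes of the family, where 5.74% of all genes were called. For Areg the difference in log2 response was -0.46 (edgeR adjusted p = 0.00162), with IFNγ libraries lower than vehicle libraries in both cell types. The Areg response in Rosa26 cells alone was not called (edgeR adjusted p = 0.0630). Without Rosa26 vehicle replicate 2 the difference was -0.36 and its call was not kept. For Hbegf the difference was -0.22 (edgeR adjusted p = 0.000449), with the response positive in both cell types. Neither call was kept when the libraries of each population were summed, in a fit with no term for the guide.

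The populations made with the Cop1 guides also differed from each other, where 5.99% of all genes were called in vehicle and 9.41% with IFNγ. In vehicle, sgRNA2 minus sgRNA1 was 0.31 for Erbb3 (edgeR adjusted p = 0.0288), -0.25 for Hbegf (8.18e-07) and -0.21 for Tgfa (0.00277). With IFNγ it was -0.25 for Hbegf (9.15e-07). The calls of Erbb3 and Tgfa in vehicle were lost when certain single libraries were left out, as given above. For Hbegf both sgRNA2 libraries were below both sgRNA1 libraries under each treatment.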

How the results depend on the processing

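Of 23 calls of family members in the 5 averaged comparisons, 9 were kept under all 18 alternatives: Erbb3, Hbegf and Tgfa with Cop1 loss under both treatments, Areg with Cop1 loss in vehicle, and Areg and Btc with IFNγ in Cop1-loss cells. Summing the libraries of each population, so that the spread comes from the Cop1 guides alone and few degrees of freedom remain, moved the counts most. No term for the guide was fitted there, so tests of IFNγ and of the difference in response did not use the shared guide populations of both treatments. Genes called then numbered 865 and 1397 for Cop1 loss in vehicle and with IFNγ, 1102 and 1364 for IFNγ in Rosa26 and Cop1-loss cells, and 0 for the difference in response. Members called numbered 4, 3, 0, 2 and 0 in that order. In the difference in response 546 genes had an unadjusted p under 0.05 in edgeR with sums, 2185 with single libraries (683 adjusted), and DESeq2 called 489. For members the unadjusted counts with sums were 1 for IFNγ in Rosa26 cells and 1 for the difference in response, and DESeq2 on single libraries called 3 and 2.

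Leaving out each library in turn gave 344 to 745 genes and 1 to 2 members for the difference in response, with 452 and 353 genes without Rosa26 vehicle replicate 1 or 2 and 344 without Rosa26 IFNγ replicate 1. For sgRNA2 against sgRNA1 it gave 348 to 693 genes in vehicle (348 and 425 without sgRNA1 replicate 1 or 2, 408 without sgRNA2 replicate 1) and 420 to 1265 with IFNγ (420 and 721 without sgRNA1 replicate 1 or 2, 428 and 686 without sgRNA2 replicate 1 or 2). Signs changed in 28 cases, 0 of them for a called value. With library totals alone Epgn with Cop1 loss under IFNγ was -0.015, and Areg with sgRNA1 under IFNγ -0.017. The other changes came from leaving out libraries, with these log2 ranges. For Cop1 loss in vehicle they were -0.088 to 0.16 for Btc and -0.32 to 0.46 for Epgn. With IFNγ they were -0.039 to 0.031 for Areg and -0.79 to 1.99 for Epgn. For IFNγ in Rosa26 cells they were -0.061 to 0.53 for Egfr, -0.085 to 0.080 for Erbb2 and -2.63 to 0.15 for Epgn. For the difference in response they were -0.25 to 0.35 for Egfr, -0.047 to 0.12 for Erbb2, -0.94 to 1.84 for Epgn and -0.0012 to 0.10 for Nrg1. Areg ranged from -0.0047 to 0.065 with sgRNA1 against Rosa26 under IFNγ and from -0.14 to 0.045 between guides in vehicle. The cause of these changes was not tested.

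Same-numbered libraries did not deviate together (correlations -0.06 to 0.07 over 15 pairs of groups, 0 over 0.1), so no pairing by number was seen. These deviations include counting noise, so a weak effect shared by number could go unseen. With the replicate number as a block, Cop1 loss called 4292 genes in vehicle and 4862 with IFNγ, and 7 and 6 members, and no count moved by over 1.5 times. Epgn (2 to 32 counts per library) and Egfr (42 to 118) limit what this depth can show.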
